A study of Homo sapiens with 15 samples.

Results

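The genes described here are 9 transcriptional targets of the tumour suppressor protein p53, out of 57905 genes in an RNA sequencing table of the human colorectal cancer line SW480. They were chosen by symbol and not by their values: the cell cycle inhibitor CDKN1A, the p53 ubiquitin ligase MDM2, the apoptosis genes BAX, BBC3 and PMAIP1, and the repair and metabolic genes GADD45A, DDB2, RRM2B and C12orf5, the older symbol of TIGAR. All 9 had at least 0.5 FPKM (fragments per kilobase of transcript, scaled to the fragments mapped in the library) in at least 3 of the 12 libraries and were therefore among the 17214 genes tested. The study has 4 groups of 3 libraries. PINT shRNA1 with LPS is SW480 cells that stably carry a lentiviral short hairpin against the long non-coding RNA PINT and were exposed for 4 h to lipopolysaccharide (LPS, a bacterial wall component) at 1 µg/ml. PINT shRNA1 is hairpin cells without LPS, LPS is wild-type cells given the same LPS exposure, and control is wild-type cells given buffer for 4 h. Cells with a non-targeting hairpin are not among the labelled groups, and the labels give no clone and do not say whether libraries of a group are separate cultures.

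p53 is a transcription factor that is stabilised by DNA damage and other stress, binds pairs of short half-sites near its target genes and recruits the transcription machinery to them. Its targets halt the cell cycle, start mitochondrial apoptosis, repair DNA and adjust metabolism, and among them MDM2 marks p53 itself for destruction, which closes a feedback loop. Many of these genes also have other activators, so their RNA is not a readout of p53 alone. PINT was named as a p53-induced transcript, and SW480 is known to carry a mutated p53 gene.

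The classical response element can be read in 2 of the members that changed, and their promoters are shown for that reason. RefSeq (GRCh38.p14) promoter entries, running from 250 bases before to 50 bases after a transcription start, were found for 7 of the 9 members, in 11 entries. The p53 half-site consensus was searched on both strands, with pairs of half-sites up to 13 bases apart. An exact pair stood in 1 of the 7 members, DDB2, and in 0.0286% of 34943 RefSeq promoters, while a single half-site stood in 6.64%. With up to 2 mismatches outside the core C and G of each half-site, and no spacer, a pair stood in 0.286% of promoters. MDM2 was the only further member to hold one. In the DDB2 entry (chr11:47214724-47215023, plus strand) the capitals mark the 2 half-sites, which are 1 base apart and begin at base 6 of the transcript. In the MDM2 entry, of its internal promoter (chr12:68808767-68809066, plus strand), the capitals mark a pair with 2 mismatches that begins at position -94 from the start. A match of letters is a description and not a bound site, and the other entries, apart from an overlapping one of MDM2, hold no such pair within these windows.
DDB2: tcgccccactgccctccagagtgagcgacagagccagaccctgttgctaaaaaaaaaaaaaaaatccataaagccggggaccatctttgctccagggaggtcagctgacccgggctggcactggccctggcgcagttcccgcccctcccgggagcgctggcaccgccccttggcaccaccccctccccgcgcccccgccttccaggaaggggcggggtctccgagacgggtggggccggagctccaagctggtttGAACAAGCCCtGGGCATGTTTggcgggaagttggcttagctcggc
MDM2: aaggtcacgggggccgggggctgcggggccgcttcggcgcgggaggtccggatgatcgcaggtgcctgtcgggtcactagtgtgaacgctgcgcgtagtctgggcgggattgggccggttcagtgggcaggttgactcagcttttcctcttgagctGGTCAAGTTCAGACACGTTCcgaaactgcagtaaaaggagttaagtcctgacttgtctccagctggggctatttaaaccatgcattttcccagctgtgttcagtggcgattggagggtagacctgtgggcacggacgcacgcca

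The targeted RNA went against the hairpin's label. LINC-PINT, the PINT gene, had 3.87 ± 0.29 FPKM in PINT shRNA1 with LPS against 2.38 ± 0.46 FPKM in LPS, and 5.05 ± 0.44 FPKM in PINT shRNA1 against 2.65 ± 0.20 FPKM in control (SD, n = 3 each), so PINT shRNA1 names the labelled libraries only and no lowering of PINT is assumed. The labelled libraries also stood apart in other measures. They listed 30725 to 31961 genes above 0, against 27078 to 28430 genes in the libraries without the hairpin. Relative depth (control replicate 1 set to 1) was 0.914 to 1.05 in PINT shRNA1 against 0.809 to 1 in control, which overlapped. It was 1.3 to 1.51 in PINT shRNA1 with LPS against 0.848 to 0.858 in LPS, without overlap. Of 12 colorectal epithelial markers, 7 were above 1 FPKM in every group, CDX1 was listed at 0 throughout, and their summed level was 1440 to 1610 FPKM in the hairpin libraries against 2340 to 2670 FPKM in the others. KRT8, KRT18, KRT19 and EPCAM carry that sum, and CDX2 went the other way, at 13.7 ± 0.46 FPKM in PINT shRNA1 with LPS against 8.78 ± 0.42 FPKM in LPS, and 13.4 ± 1.46 FPKM in PINT shRNA1 against 10.2 ± 1.36 FPKM in control. No fibroblast or endothelial marker had a group mean above 1 FPKM, and the leukocyte markers summed to 3.2 to 5.86 FPKM over all libraries. The part of these differences in the results below was not tested.

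The hairpin libraries differed from their counterparts in 4 of the 9 genes without LPS and in 6 of 9 under LPS, in both directions. Without LPS, CDKN1A, DDB2 and C12orf5 fell and RRM2B rose. Under LPS, MDM2, PMAIP1, DDB2 and C12orf5 fell while BAX and RRM2B rose. LPS itself changed none of the 9 genes in either background at an adjusted p under 0.05. All tests are limma fits on log2(FPKM + 0.5), adjusted with the Benjamini-Hochberg method over all 17214 genes, and fold changes on this scale understate the change of low genes. In bulk RNA, fewer cells expressing a gene and less RNA in each cell cannot be told apart.

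These counts have to be read against a broad background. In PINT shRNA1 against control 27.3% of all tested genes were called, 16.9% higher and 10.3% lower, and 1 member was higher and 3 were lower. In PINT shRNA1 with LPS against LPS 29.2% of genes were called, 17.7% higher and 11.6% lower, and 2 members were higher and 4 were lower. Scaling each library to its median changed the balance of all calls to 2232 higher and 2135 lower without LPS (2913 and 1780 as deposited), and to 2385 higher and 2549 lower under LPS (3039 and 1994 as deposited), whereas the members' counts stayed at 1 higher and 3 lower, and at 2 higher and 4 lower. The median log2 fold change of the members was -0.34 without LPS and -0.27 under LPS, and that of all tested genes was 0.06 and 0.05. Groups did not overlap for 4 members without LPS and for 7 under LPS, against 41.3% and 45.7% of all genes. An exact permutation test of 3 against 3 libraries, two-sided, gave 0.1 for each of these, which is the smallest p that design allows.

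**Figure D1:**
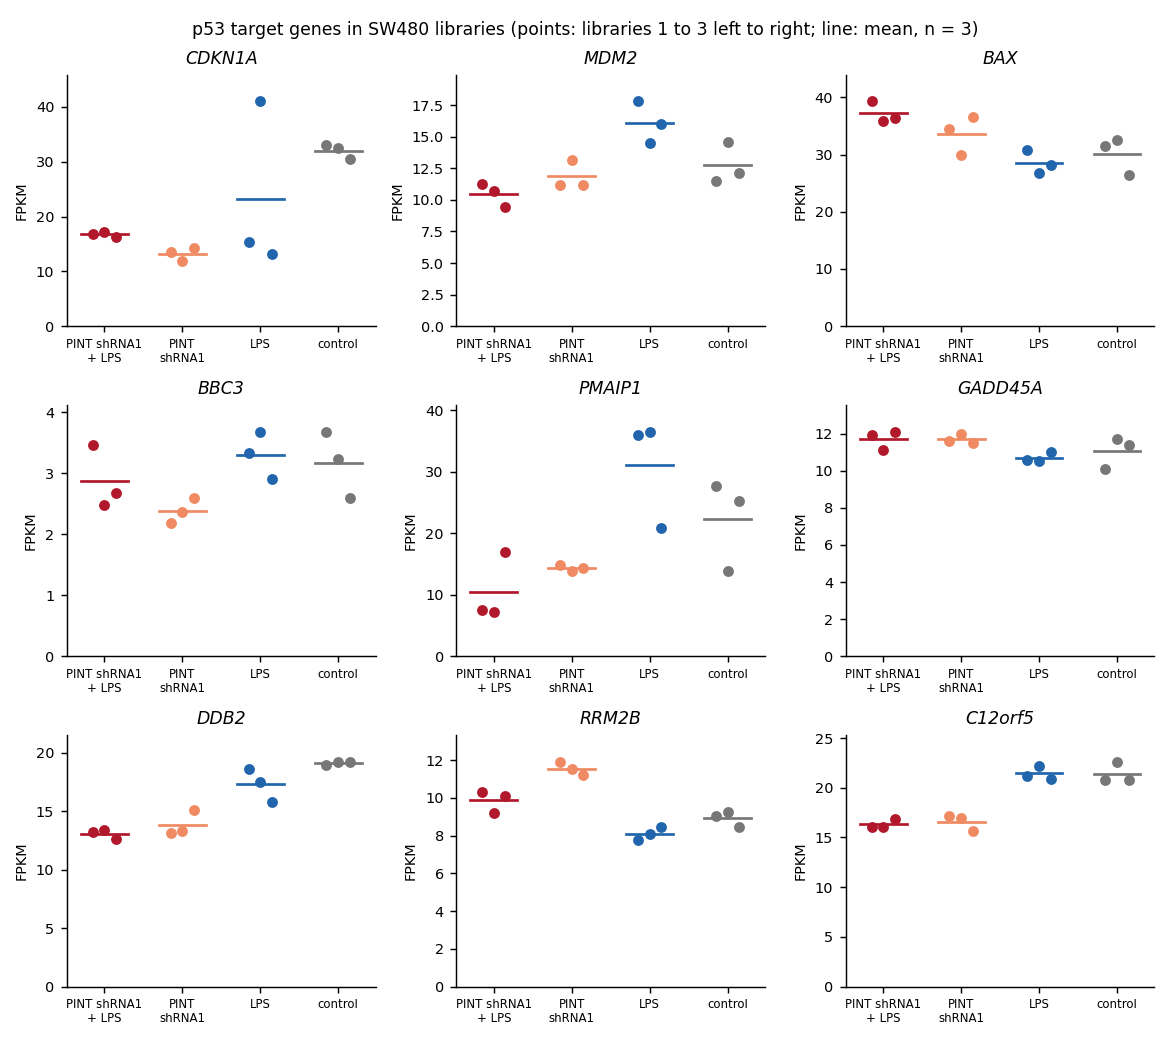
FPKM of the 9 p53 target genes (y axis, from 0, a separate scale for each gene) in PINT shRNA1 with LPS, PINT shRNA1, LPS and control (x axis, left to right); points are the 3 libraries of a group and lines are their means. DDB2 and C12orf5 lie lower in all 6 hairpin libraries than in the 6 others, RRM2B lies higher in each hairpin group than in its counterpart, and 1 LPS library of CDKN1A stands at 41.0 FPKM beside 15.4 and 13.2 FPKM in the other LPS libraries.

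CDKN1A encodes p21, which inhibits cyclin-dependent kinases and arrests the cell cycle. It had 13.5, 11.8 and 14.3 FPKM in PINT shRNA1, against 33.1, 32.5 and 30.5 FPKM in control. No library overlapped, the PINT shRNA1 mean was 0.412 of the control mean, and the log2 fold change was -1.25 ± 0.31 (SE; limma adjusted p = 0.013). Under LPS the picture rested on a single library: CDKN1A had 16.8, 17.2 and 16.3 FPKM in PINT shRNA1 with LPS, against 15.4, 41.0 and 13.2 FPKM in LPS. LPS replicate 2 was above every other library of the study, while the other LPS libraries were just below the 3 of PINT shRNA1 with LPS. The log2 fold change was -0.27 ± 0.31 (limma adjusted p = 0.558), and without LPS replicate 2 it was 0.22 with the opposite sign (limma adjusted p = 0.0949).

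The same library decided what LPS did to CDKN1A. With all libraries, LPS against control gave a log2 fold change of -0.64 ± 0.31 (limma adjusted p = 0.334), and 2.76% of all genes were called in that comparison. Without LPS replicate 2 it was -1.14 and was called (limma adjusted p = 0.000179). The difference between the LPS responses with and without the hairpin was 0.98 ± 0.44 on the log2 scale with all libraries (limma adjusted p = 0.644) and 1.48 without LPS replicate 2 (limma adjusted p = 0.000654). By group mean the order was PINT shRNA1 (13.2 ± 1.28 FPKM), PINT shRNA1 with LPS (16.8 ± 0.46), LPS (23.2 ± 15.4) and control (32.0 ± 1.39; SD, n = 3 each). The 2 hairpin groups did not overlap but did not differ by the test (log2 fold change 0.34 ± 0.31, limma adjusted p = 0.808), and LPS overlapped every neighbour.

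MDM2 encodes the ligase that ubiquitinates p53 and is itself induced by it from the internal promoter shown above. Its RNA had 11.3, 10.7 and 9.43 FPKM in PINT shRNA1 with LPS, against 17.8, 14.5 and 16.0 FPKM in LPS. The groups did not overlap and MDM2 fell to 0.653 of the LPS mean (log2 fold change -0.59 ± 0.11, limma adjusted p = 0.00244). Without LPS no difference was called: MDM2 had 11.2, 13.2 and 11.2 FPKM in PINT shRNA1, against 11.5, 14.6 and 12.1 FPKM in control, with a 95% interval of the log2 fold change from -0.34 to 0.15. The hairpin effects with and without LPS differed by -0.50 ± 0.16 on the log2 scale, with an unadjusted p of 0.00896 and a limma adjusted p of 0.455, so the difference did not pass the adjustment. LPS libraries had the highest group mean (16.1 ± 1.66 FPKM, against 12.7 ± 1.65 FPKM in control), at an unadjusted p of 0.0133 in limma and an adjusted p of 0.157, and LPS and control overlapped.

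Among the apoptosis genes, PMAIP1 and BAX moved in opposite directions under LPS. PMAIP1 encodes NOXA, a BH3-only protein that neutralises the survival factor MCL1. It had 7.49, 7.14 and 16.9 FPKM in PINT shRNA1 with LPS, against 35.9, 36.5 and 20.8 FPKM in LPS. Replicate 3 stood apart in both groups, high in the hairpin group and low in the LPS group, and the groups still did not overlap. PMAIP1 fell to 0.339 of the LPS mean, the log2 fold change being -1.58 ± 0.34 (limma adjusted p = 0.00575), and leaving out each library in turn gave -1.97 to -1.38. Without LPS it had 14.9, 13.8 and 14.3 FPKM in PINT shRNA1, against 27.7, 13.8 and 25.3 FPKM in control. The groups met at control replicate 2, and the log2 fold change of -0.56 ± 0.34 was not called (limma adjusted p = 0.264).

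BAX encodes the effector that perforates the mitochondrial outer membrane. It had 39.3, 35.9 and 36.4 FPKM in PINT shRNA1 with LPS, against 30.8, 26.8 and 28.2 FPKM in LPS, and rose without overlap (log2 fold change 0.38 ± 0.09, limma adjusted p = 0.0116). Without LPS it had 34.5, 30.0 and 36.5 FPKM in PINT shRNA1, against 31.6, 32.6 and 26.4 FPKM in control, which overlapped (log2 fold change 0.16 ± 0.09, limma adjusted p = 0.247). BBC3 encodes PUMA, a BH3-only protein that binds all survival members of the BCL2 family, and was the least abundant of the 9 genes. It had 2.19, 2.36 and 2.60 FPKM in PINT shRNA1, against 3.68, 3.23 and 2.60 FPKM in control, so that the lowest control library met the highest hairpin library. Its log2 fold change of -0.34 ± 0.14 was not called (limma adjusted p = 0.095), and without control replicate 3 it was -0.46 and was called (limma adjusted p = 0.0411). Under LPS, BBC3 had 3.47, 2.48 and 2.67 FPKM in PINT shRNA1 with LPS, against 3.33, 3.67 and 2.91 FPKM in LPS, and the groups overlapped.

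The repair and metabolic genes gave the most even values, and 3 of the 4 changed in the hairpin libraries both with and without LPS. These 2 comparisons share no library, but both set hairpin cells against wild-type cells and use the same pooled estimate of the spread. DDB2 encodes the damage-binding subunit that recognises ultraviolet lesions for nucleotide excision repair, and its promoter holds the exact pair of half-sites. It had 13.1, 13.3 and 15.1 FPKM in PINT shRNA1, against 18.9, 19.2 and 19.2 FPKM in control. Under LPS it had 13.2, 13.4 and 12.6 FPKM in PINT shRNA1 with LPS, against 18.6, 17.5 and 15.8 FPKM in LPS. All 6 hairpin libraries were below all 6 others, and DDB2 fell by 0.46 ± 0.07 on the log2 scale without LPS (limma adjusted p = 0.000779) and by 0.39 ± 0.07 under LPS (limma adjusted p = 0.00184).

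C12orf5 encodes TIGAR, a fructose bisphosphatase that lowers glycolytic flux and favours the pentose phosphate pathway. It had 17.2, 17.0 and 15.6 FPKM in PINT shRNA1, against 20.8, 22.6 and 20.8 FPKM in control, and 16.1, 16.1 and 16.9 FPKM in PINT shRNA1 with LPS, against 21.2, 22.2 and 20.9 FPKM in LPS. Again no hairpin library reached the others, and the falls were alike in size, -0.36 ± 0.05 without LPS (limma adjusted p = 0.000861) and -0.38 ± 0.05 under LPS (limma adjusted p = 0.000523). The difference between the 2 hairpin effects was -0.02, with a 95% interval from -0.19 to 0.15.

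RRM2B encodes p53R2, the ribonucleotide reductase subunit that supplies deoxynucleotides for repair outside S phase, and it moved the other way. It had 11.9, 11.5 and 11.2 FPKM in PINT shRNA1, against 9.05, 9.25 and 8.43 FPKM in control. Under LPS it had 10.3, 9.18 and 10.1 FPKM in PINT shRNA1 with LPS, against 7.76, 8.08 and 8.47 FPKM in LPS. Neither pair of groups overlapped, and RRM2B rose by 0.36 ± 0.06 on the log2 scale without LPS (limma adjusted p = 0.00176) and by 0.27 ± 0.06 under LPS (limma adjusted p = 0.00796). GADD45A encodes a stress sensor that binds PCNA and activates stress kinases, and was close to level: 11.9, 11.1 and 12.1 FPKM in PINT shRNA1 with LPS and 11.6, 12 and 11.5 FPKM in PINT shRNA1, against 10.6, 10.5 and 11.0 FPKM in LPS and 10.1, 11.7 and 11.4 FPKM in control. Its 95% interval of the log2 fold change ran from -0.06 to 0.22 without LPS and from -0.02 to 0.26 under LPS, and neither difference was called. Under LPS the groups did not overlap, the hairpin libraries being higher, so GADD45A is among the members counted above as without overlap.

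**Figure D2:**
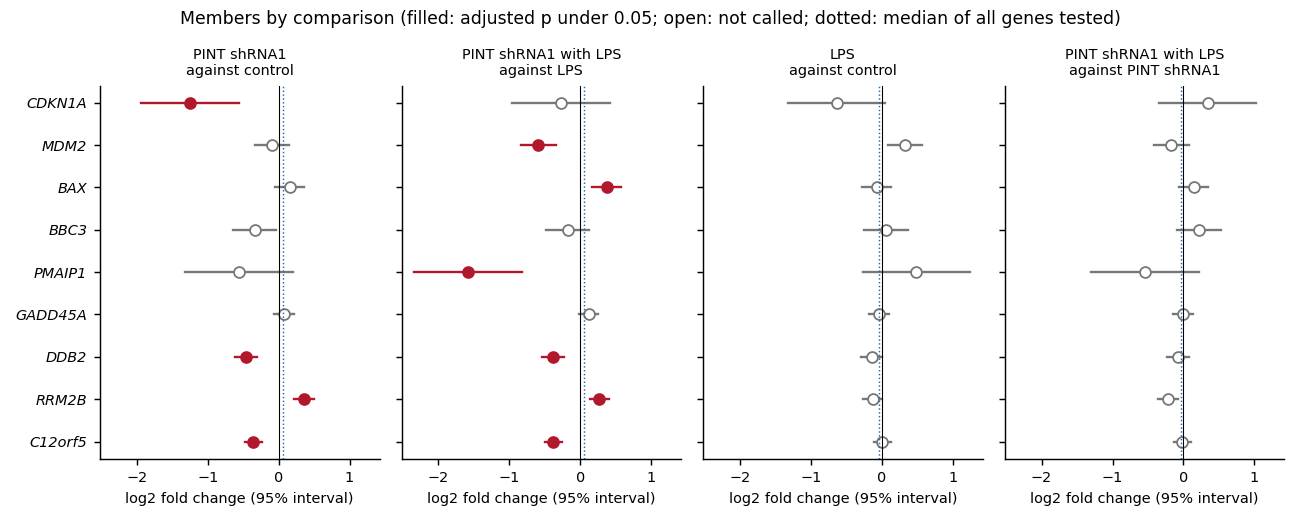
Log2 fold change of each p53 target gene (x axis) with its 95% interval in 4 comparisons, filled where the limma adjusted p was under 0.05; the dotted line is the median of all tested genes. Calls stand only in the 2 panels that compare hairpin libraries with their counterparts, 4 in one and 6 in the other, and DDB2, RRM2B and C12orf5 are called in both.

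LPS left the 9 genes with few differences in either background. None was called in LPS against control, where 2.76% of all genes were called (271 higher and 204 lower as deposited, 450 higher and 123 lower with median scaling) and where 1 member, MDM2, had an unadjusted limma p under 0.05. DDB2 was the only member whose groups did not overlap there, lower in LPS (log2 fold change -0.14 ± 0.07, limma adjusted p = 0.326), against 19.2% of all genes without overlap. In PINT shRNA1 with LPS against PINT shRNA1 none was called either, against 0.186% of all genes, and 1 member had an unadjusted p under 0.05. That was RRM2B, at 10.3, 9.18 and 10.1 FPKM in PINT shRNA1 with LPS against 11.9, 11.5 and 11.2 FPKM in PINT shRNA1, a log2 fold change of -0.22 ± 0.06 (limma adjusted p = 0.319). CDKN1A and RRM2B were the 2 members without overlap in this comparison, where 19.3% of all genes did not overlap. For the interaction, the difference of the LPS responses, 0.128% of all genes and 0 of the 9 members were called, and CDKN1A and MDM2 had an unadjusted limma p under 0.05. The members had a median log2 fold change of -0.04 for LPS without the hairpin and -0.02 for LPS with it, beside -0.04 for all genes in both.

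Replicate libraries differed far more for CDKN1A and PMAIP1 than for the other members. The pooled SD within groups on the log2 scale was 0.44 for CDKN1A and 0.48 for PMAIP1, above that of 96.4% and 97.2% of the 13840 genes that averaged 1 FPKM or more, whose median was 0.12. The other 7 members had SDs of 0.06 to 0.18. PMAIP1 spread 2.37-fold between the highest and lowest library in PINT shRNA1 with LPS, 1.08-fold in PINT shRNA1, 1.76-fold in LPS and 2.01-fold in control, and CDKN1A spread 3.1-fold in LPS and 1.06-fold to 1.21-fold in the other groups. Such spreads were found in every group: 228 genes (1.65%) spread over 2-fold in PINT shRNA1 with LPS and 278 (2.01%) in PINT shRNA1, against 456 (3.29%) in LPS and 437 (3.16%) in control.

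**Figure D3:**
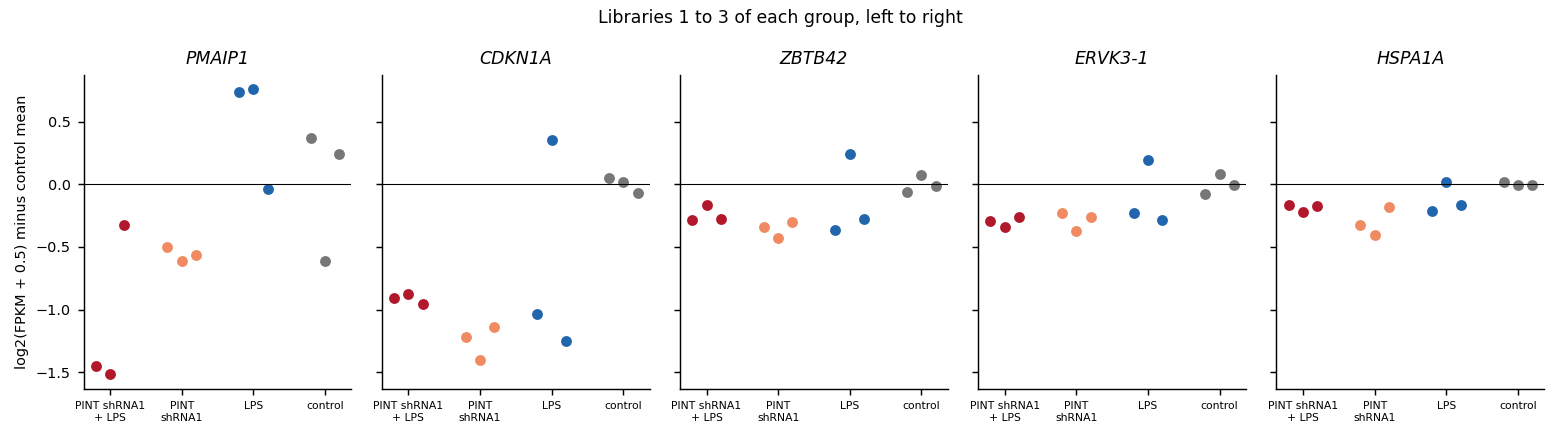
Log2(FPKM + 0.5) minus the control mean (y axis) in libraries 1 to 3 of each group (x axis, PINT shRNA1 with LPS, PINT shRNA1, LPS, control) for PMAIP1, CDKN1A and the 3 genes whose pattern was most like that of CDKN1A. In LPS, CDKN1A and the 3 like genes, chosen for likeness over these libraries, all have replicate 2 highest, whereas PMAIP1 has replicate 3 apart.

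A few genes followed individual members closely across the 12 libraries. Likeness was Pearson's r of log2 values over libraries, given as a description, since the libraries share their groups. The like genes were chosen by r over these same libraries, so the patterns they share with the members follow from that choice. CDKN1A was most like ZBTB42 (r = 0.952), ERVK3-1 (r = 0.925) and HSPA1A (r = 0.913), a heat shock gene with a near-identical copy, HSPA1B, between which reads may be divided. In LPS, ZBTB42 had 1.23, 2.13 and 1.34 FPKM and ERVK3-1 had 22.8, 30.8 and 22.0 FPKM, so the library with high CDKN1A was high in both. MDM2 was most like RNU7-84P (r = 0.896), ACTR3C (r = 0.892) and SOCS2 (r = 0.892), the last at 1.07, 1.19 and 1.19 FPKM in PINT shRNA1 with LPS, against 5.03, 3.50 and 3.99 FPKM in LPS. DDB2 was most like GMPR (r = 0.984), NR1D2 (r = 0.972) and ALDH3A1 (r = 0.971), all lower in the 6 hairpin libraries than in the 6 others. GMPR, which encodes guanosine monophosphate reductase, had 3.79, 4.02 and 4.79 FPKM in PINT shRNA1, against 6.14, 6.03 and 5.95 FPKM in control.

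Beyond the 9 members, 35 other p53 target genes were examined, of which 34 were in the table and 32 were tested. In PINT shRNA1 against control 4 rose and 6 fell, and in PINT shRNA1 with LPS against LPS 2 rose and 8 fell, 31.2% in each, beside 27.3% and 29.2% of all genes. The list's median log2 fold change was -0.05 in both, against 0.06 and 0.05 for all genes. With median scaling 2 were higher and 9 lower without LPS, and 2 higher and 8 lower under LPS. A fit of only PINT shRNA1 and control gave 5 calls, 2 higher and 3 lower, and without replicate 2 of PINT shRNA1 with LPS there were 6 calls under LPS, 1 higher and 5 lower.

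PHLDA3, a gene of this list, fell both without and with LPS (log2 fold change -1.03 ± 0.27 in each, limma adjusted p = 0.0153 and 0.0141). Its hairpin libraries spread widely, from 10.8 to 25.9 FPKM in PINT shRNA1 and from 18.2 to 29 FPKM in PINT shRNA1 with LPS. The PHLDA3 calls were not followed through the alternative settings. PERP, a desmosomal membrane protein linked to apoptosis, fell about as far as PHLDA3 and had the smallest p of the list in both comparisons. It averaged 78.6 ± 0.89 FPKM in PINT shRNA1 against 158 ± 3.06 FPKM in control (SD, n = 3 each; log2 fold change -1.01 ± 0.03, limma adjusted p = 1.25e-08), and 85.4 ± 1.84 FPKM in PINT shRNA1 with LPS against 185 ± 4.05 FPKM in LPS (log2 fold change -1.11 ± 0.03, limma adjusted p = 5.94e-09). RPS27L, a ribosomal protein paralog, fell without and with LPS (-0.64 ± 0.11 and -0.50 ± 0.11, limma adjusted p = 0.00134 and 0.00497), as did the centriole kinase PLK2 (-0.29 ± 0.07 and -0.49 ± 0.07, limma adjusted p = 0.0107 and 0.000535). The exonuclease AEN and the TRAIL death receptor TNFRSF10A were called under LPS, with log2 fold changes of -0.51 ± 0.09 and -0.37 ± 0.06 (limma adjusted p = 0.00233 and 0.00142). The TRAIL decoy receptor TNFRSF10D rose without and with LPS (0.66 ± 0.10 and 0.44 ± 0.10, limma adjusted p = 0.000591 and 0.00592), and averaged 21.6 ± 3.76 FPKM in PINT shRNA1 against 13.4 ± 0.44 FPKM in control. TNFRSF10C, another decoy receptor, was called higher without LPS (0.54 ± 0.13, limma adjusted p = 0.00978) and was not called under LPS. It lay near the filter, at 0.628 to 0.952 FPKM in PINT shRNA1 against 0.336 to 0.402 FPKM in control. Only hairpin libraries reached 0.5 FPKM, so the gene was tested because it was high there. Its call, included in the count of rising genes above, is therefore a description only.

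LPS without the hairpin raised 3 genes of this list and lowered none, 9.38% beside 2.76% of all genes, and the list's median was -0.07. They were PERP (log2 fold change 0.22 ± 0.03, limma adjusted p = 0.00379) and the TRAIL receptors TNFRSF10B (0.32 ± 0.07, limma adjusted p = 0.0439) and TNFRSF10A (0.27 ± 0.06, limma adjusted p = 0.048). The calls of TNFRSF10B and TNFRSF10A were lost in 16 and 17 of 23 alternative settings, and that of PERP in 1, the fit of the 2 groups. The count ran from 1 to 3 when each library was left out and from 0 to 4 under the other settings, with 0 in a fit of LPS and control alone. In PINT shRNA1 with LPS against PINT shRNA1, limma called 0 of the 32, and 4 had an unadjusted p under 0.05.

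**Figure D4:**
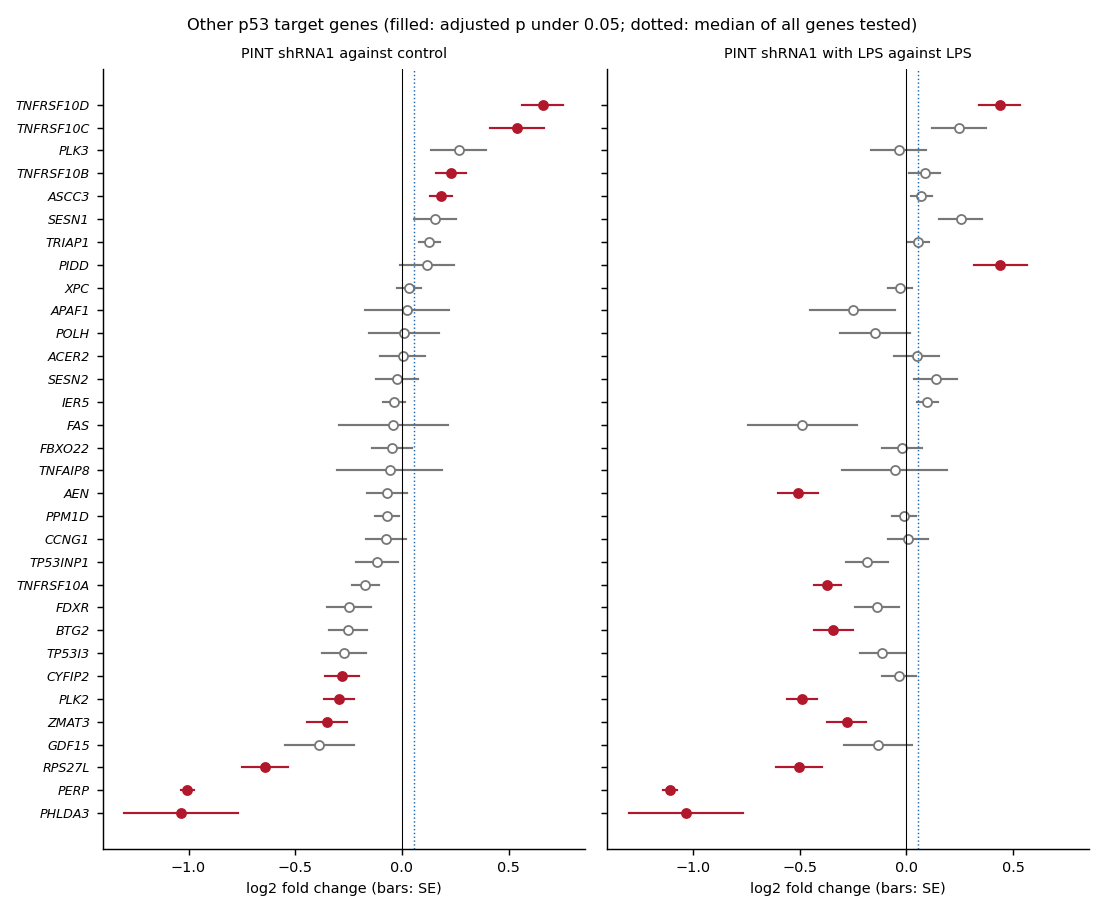
Log2 fold change with its SE (x axis) of the 32 tested other p53 target genes in PINT shRNA1 against control (left) and in PINT shRNA1 with LPS against LPS (right), in the order of the left panel, filled where the limma adjusted p was under 0.05; the dotted line is the median of all tested genes. Most genes lie near 0, PERP is among the lowest in both panels, and TNFRSF10D lies at 0.66 on the left.

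Of 17 tested regulators of p53, 1 rose and 1 fell in PINT shRNA1 against control, 2 rose and 2 fell in PINT shRNA1 with LPS against LPS (11.8% and 23.5% called, beside 27.3% and 29.2% of all genes), and none was called in LPS against control, where none had an unadjusted limma p under 0.05 either. TP53RK, a kinase that phosphorylates p53, rose without and with LPS (log2 fold changes 0.28 ± 0.05 and 0.29 ± 0.05, limma adjusted p = 0.00201 and 0.00149). HIPK2, another p53 kinase, fell by 0.17 ± 0.05 in both (limma adjusted p = 0.0342 and 0.0304), calls that were lost in 7 of 21 and 8 of 23 alternative settings. Under LPS the checkpoint kinase ATR fell by 0.18 ± 0.05 (limma adjusted p = 0.0183), a call lost in 3 of 23 settings, and the acetyltransferase EP300 rose by 0.12 ± 0.04 (limma adjusted p = 0.0476), the EP300 call being lost in 18 of 23 settings.

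The BCL2 family partners of BAX, BBC3 and PMAIP1 included both killer and survival genes. Of 10 tested, 4 were higher and none lower without LPS, and 3 were higher and none lower under LPS, which is 40% and 30%, beside 27.3% and 29.2% of all genes called in either direction and 16.9% and 17.7% called higher. BIK, a BH3-only killer protein, averaged 13.3 ± 1.03 FPKM in PINT shRNA1 against 7.98 ± 0.63 FPKM in control, and 17.9 ± 0.53 FPKM in PINT shRNA1 with LPS against 11.0 ± 0.61 FPKM in LPS (log2 fold changes 0.71 ± 0.07 and 0.68 ± 0.07, limma adjusted p = 6.36e-05 and 7.2e-05). BMF, another BH3-only gene, rose in both (0.63 ± 0.15 and 0.73 ± 0.15, limma adjusted p = 0.00917 and 0.00382), and BAD rose under LPS (0.43 ± 0.10, limma adjusted p = 0.00735). The survival genes MCL1 and BCL2L2 were called higher without LPS (0.11 ± 0.03 and 1.69 ± 0.55, limma adjusted p = 0.0248 and 0.0423), calls lost in 10 and 9 of 21 settings. LPS without the hairpin raised BIK (0.44 ± 0.07, limma adjusted p = 0.00938) and BID (0.27 ± 0.06, limma adjusted p = 0.0364), calls lost in 2 and 14 of 23 settings, for BIK in the fit of the 2 groups and with the replicate block.

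Around CDKN1A, 7 of 17 cyclins, kinases and inhibitors rose and 2 fell without LPS, and 6 rose and 2 fell under LPS, which is 52.9% and 47.1%, beside 27.3% and 29.2% of all genes. CCND1, the cyclin that starts G1 progression with CDK4 and CDK6, averaged 320 ± 2.59 FPKM in PINT shRNA1 against 574 ± 6.73 FPKM in control, and 310 ± 3.74 FPKM in PINT shRNA1 with LPS against 534 ± 2.31 FPKM in LPS (log2 fold changes -0.84 ± 0.02 and -0.78 ± 0.02, limma adjusted p = 8.8e-09 and 8.11e-09). PCNA, the other gene that fell, did so both without and with LPS (-0.17 ± 0.03 and -0.20 ± 0.03, limma adjusted p = 0.00198 and 0.000629). CDKN2D, an inhibitor of CDK4 and CDK6, rose in both (0.78 ± 0.09 and 1.04 ± 0.09, limma adjusted p = 0.000167 and 2.05e-05). CDK1, the mitotic kinase, rose without and with LPS (0.21 ± 0.03 and 0.14 ± 0.03, limma adjusted p = 0.0013 and 0.00931), and so did CDK6 (0.24 ± 0.04 and 0.13 ± 0.04, limma adjusted p = 0.00149 and 0.038). Under LPS the CDK1 call was lost in 1 and the CDK6 call in 9 of 23 settings. In LPS against control 1 of the 17 was called, CCND1 (-0.10 ± 0.02, limma adjusted p = 0.0468), a call lost in 18 of 23 settings.

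Of 13 paralogs and partners of the repair and metabolic members, 3 rose and 2 fell without LPS and 1 rose and 1 fell under LPS, which is 38.5% and 15.4%, beside 27.3% and 29.2% of all genes. RRM2, the S-phase counterpart of RRM2B, averaged 86.0 ± 1.68 FPKM in PINT shRNA1 with LPS against 100 ± 1.74 FPKM in LPS, and fell (log2 fold change -0.22 ± 0.03, limma adjusted p = 0.000675), while RRM2B rose. It also fell without LPS (-0.12 ± 0.03, limma adjusted p = 0.0168), a call lost in 4 of 21 settings. PFKFB4, a regulator of fructose bisphosphate like TIGAR, rose without LPS (0.46 ± 0.10, limma adjusted p = 0.00539). CUL4B, a scaffold of the DDB2 ubiquitin ligase complex, rose under LPS (0.22 ± 0.04, limma adjusted p = 0.00259), and DDB1, the partner subunit of DDB2, was called higher without LPS (0.14 ± 0.05, limma adjusted p = 0.0431), a call lost in 13 of 21 settings.

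PMAIP1 is also known as a target of the transcription factor ATF4, so genes of the integrated stress response were set beside it. A link between them and PMAIP1 in these libraries was not tested. Of 13, 1 rose and 9 fell in PINT shRNA1 against control, and 2 rose and 7 fell in PINT shRNA1 with LPS against LPS (76.9% and 69.2% called, beside 27.3% and 29.2% of all genes), with medians of -0.33 and -0.26 beside 0.06 and 0.05 for all genes. ATF4 itself averaged 61.3 ± 2.18 FPKM in PINT shRNA1 with LPS against 105 ± 6.25 FPKM in LPS (log2 fold change -0.77 ± 0.11, limma adjusted p = 0.000524), and it also fell without LPS (-0.49 ± 0.11, limma adjusted p = 0.00788). CHAC1, a glutathione-degrading enzyme, and ASNS, asparagine synthetase, fell both without LPS (-1.11 ± 0.15 and -0.69 ± 0.11, limma adjusted p = 0.000358 and 0.000854) and under LPS (-1.02 ± 0.15 and -0.80 ± 0.11, limma adjusted p = 0.000576 and 0.000331). In LPS against control 1 of the 13 was called, DDIT4, an inhibitor of mTOR signalling, which fell by 0.41 ± 0.07 (limma adjusted p = 0.00847), a call lost in the fit of the 2 groups and with the replicate block.

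Counting may mix some members with their neighbours. In GENCODE 29, C12orf5 overlaps 2 other genes, BBC3 overlaps 2 microRNA genes, CDKN1A overlaps DINOL and DDB2 overlaps an antisense gene, both on the opposite strand, and MDM2 overlaps 4 genes, among them CPM. The library's strandedness is not given in the sources used here, so their reads cannot be told apart, while BAX, GADD45A, PMAIP1 and RRM2B overlap no annotated gene.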

How the data were processed

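Gene-level FPKM values were used as deposited by the authors. Per the submitters' processing notes, which give no roles, the build was GRCh37/hg19 and the tools included StringTie 1.3.4d, HISAT2 2.1.0 and fastp. Groups came from the labels. These list 15 samples, because each PINT shRNA1 RNA number has 2, but the table has 1 column for each number, so 12 columns were used, and 6 other columns were not used. Absolute depth is unknown, and no counting interval can be given. Values were fitted as log2(FPKM + 0.5) with limma 3.58.1 (R 4.3.3): group means of all 12 libraries, an intensity trend, two-sided tests of contrasts and adjustment by Benjamini-Hochberg over 17214 genes, with calls at an adjusted p under 0.05. The p-values measure the spread between libraries, which may be technical. The fit was tested on simulated data. The members and lists were chosen with earlier results of these data known, so list counts are descriptions. All members are named, and of each list up to 4 genes with the smallest p that were called; a gene of the list of other p53 targets is not reported here and was left out of its counts. Alternatives were 3 other scalings, pseudocounts, filters, moderation, fits of fewer groups, a term for the replicate number and leaving out each library.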

Additional observations from a re-analysis of the deposited data

How the results depend on the processing

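All 10 calls of members in the 2 hairpin comparisons held under every alternative run for them, up to 23 in each comparison. The number of members called in LPS against control and in the interaction was 0 to 1 when each library was left out, the 1 being CDKN1A without LPS replicate 2. Over all genes, LPS against control gave 475 calls, 127 in a fit of the 2 groups, 164 with the replicate number as a block and 293 to 412 without single libraries; PINT shRNA1 with LPS against PINT shRNA1 gave 32, then 65 with median scaling, 57 with quantile normalization, 18 without the intensity trend and 19 to 40 without single libraries. Small uncalled differences changed sign. With median scaling GADD45A was 0.012 in LPS against control and 0.043 in PINT shRNA1 with LPS against PINT shRNA1 (0.026 with quantile normalization, 0.0097 without mitochondrially encoded genes in the total), and C12orf5 in PINT shRNA1 with LPS against PINT shRNA1 was 0.027 and, with quantile normalization, 0.00055. Without single libraries, LPS against control ran from -0.059 to 0.16 for BBC3 and -0.020 to 0.045 for C12orf5; PINT shRNA1 with LPS against PINT shRNA1 from -0.062 to 0.0084 for C12orf5 and -0.024 to 0.035 for GADD45A; the interaction from -0.067 to 0.0034 for C12orf5 and -0.00031 to 0.11 for GADD45A; CDKN1A in PINT shRNA1 with LPS against LPS from -0.57 to 0.22; and MDM2 in PINT shRNA1 against control from -0.17 to 0.0045. Same-numbered libraries of the groups other than PINT shRNA1 did not deviate together (r from -0.06 to 0.05 over 9 pairs). That shows no strong shared shift, and it cannot exclude that the numbers pair libraries. With the replicate block the members called stayed at 0 in LPS against control and 6 in PINT shRNA1 with LPS against LPS. The PINT shRNA1 columns carry no replicate number that fits 1 sample, so the block left that group out, a choice made after seeing the data. The causes were not tested, and depth is unknown.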
